A study of Canis lupus familiaris with 36 samples.

Results

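Chemokine-high and chemokine-low tumors are 2 groups of canine oral squamous cell carcinomas (OSCC), a cancer of the epithelium that lines the mouth. The 34 tumors were ranked by a score, the mean of log2 CXCL2 and log2 IL8, and the groups were chosen by this score, as the 17 highest and the 17 lowest, out of 36 samples in all. The other 2 samples, labelled mucosal stroma, are normal oral mucosa and entered no test. RNA came from archived frozen or formalin-fixed tissue of pet dogs, and 48 genes were counted with a custom NanoString nCounter panel, in which color-coded probes tally transcripts without amplification. The labels give only a patient number and whether a sample was tumor or mucosa, so no age, treatment or preservation is set against the groups here. Every sample has its own patient number, so the number names a sample and does not identify a dog. There were fewer dogs than samples and 1 dog gave both tissues, so that some tumors shared a dog that the labels do not identify. The tests treat tumors as independent.

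CXCL2 and IL8 (CXCL8 in the RefSeq annotation) are secreted CXC chemokines that draw neutrophils out of the blood through the receptor CXCR2. Epithelial tumor cells, macrophages and endothelium can all make them in response to inflammatory signals and injury. PD-L1 is a surface ligand of tumor and myeloid cells that inhibits T cells through PD-1, and its transcription responds to interferon and to other inflammatory signals. The panel holds no defining gene of neutrophils, macrophages or keratinocytes, so the groups are named here for the chemokine transcripts and not for a cell type. In bulk tissue, fewer cells of a type and less RNA per cell cannot be told apart.

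The values that chose the groups are a description only. CXCL2 had a lowest, median and highest log2 value of 9.70, 14.05 and 16.09 in the chemokine-high tumors and of 8.98, 12.03 and 14.99 in the chemokine-low tumors. IL8 had values of 13.18, 15.32 and 18.60 in the chemokine-high and of 10.37, 12.48 and 16.82 in the chemokine-low tumors. For each chemokine taken alone the groups therefore overlapped. The score ran from 9.88 to 16.06 with a median of 14.01, and 32 tumors scored above both mucosa samples, which scored 7.47 and 10.60. For IL8 alone, 17 chemokine-high but only 7 chemokine-low tumors lay above the mucosa of patient 9, at 12.90.

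The groups met at a score of 14.01, with no gap between them. The tumor of patient 2, just inside the chemokine-low group, had a CXCL2 level of 11.19 and an IL8 level of 16.82, and the tumor of patient 3, just inside the chemokine-high group, had levels of 11.63 and 16.40. Within 0.25 of the dividing score lay 10 tumors, 3 of them chemokine-low and 7 chemokine-high.

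CXCL2 and IL8 were nearly uncorrelated over all tumors, with opposite signs in 2 sets of tumors. Over the 34 tumors their log2 values had a Pearson r of 0.07 and a Spearman rho of 0.08, and without the 2 tumors farthest from the CXCL2 median these were 0.03 and 0.05. When the tumors were instead dichotomized at the median of each chemokine, 7 were high in both, 10 were high in CXCL2 only, 10 were high in IL8 only and 7 were low in both. The chemokine-high group held all 7 tumors that were high in both, 5 that were high in CXCL2 only and 5 that were high in IL8 only. The ratio of 2 positive controls separated 7 tumors from the other 27, and these are called the first and the second batch here, although the labels name no batch. In the first batch r was -0.84 (n = 7), and in the second it was 0.37 (n = 27). Both mucosa samples had a control ratio of the first batch (2.70 and 2.85), while most tumors belonged to the second.

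**Figure D1:**
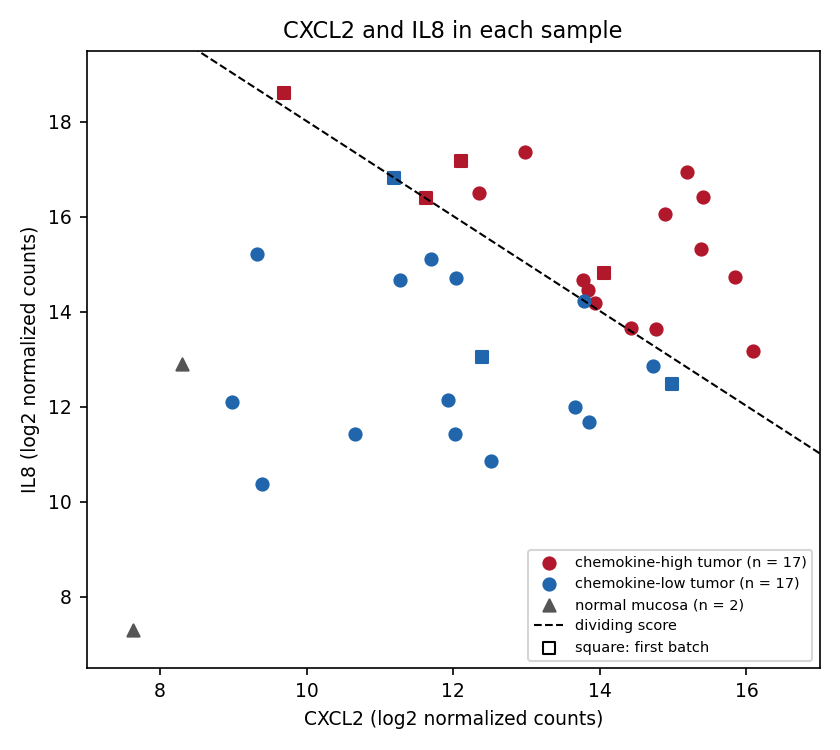
Log2 normalized counts of CXCL2 (x axis) and IL8 (y axis) in each tumor (red, chemokine-high; blue, chemokine-low; squares, first batch) and mucosa sample (grey triangles, both first batch), with the dividing score of 14.01 as a dashed line. The tumors spread along the line as well as across it, and r between the axes was 0.07 over the 34 tumors.

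Of the 42 other immune genes, 2 rows differed between the groups, and both were probes named for 1 gene. The panel carries a probe named CD274 and another named PD-L1, and RefSeq gives both names to the gene CD274. Both were higher in the chemokine-high tumors (limma, Benjamini-Hochberg adjusted p below 0.05), which is 4.76% of the genes tested, and no gene was lower. By unadjusted p below 0.05, 8 genes differed. The median difference over the 42 genes was -0.02 on the log2 scale, with 20 values above and 22 below 0.

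CD274 had a lowest, median and highest log2 value of 9.07, 10.00 and 11.52 in the chemokine-high tumors and of 7.72, 8.76 and 10.22 in the chemokine-low tumors. The ranges overlapped, and 14 of 17 chemokine-high against 3 of 17 chemokine-low tumors lay above the median of all tumors. The means were 10.19 ± 0.70 and 8.95 ± 0.75 (SD, n = 17 each), a 2.36-fold difference (log2 difference 1.24, standard error 0.26, 95% interval 0.71 to 1.77, limma adjusted p = 0.0011). The mucosa samples had CD274 levels of 7.48 and 9.80.

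The PD-L1 probe had values of 6.24, 7.68 and 9.59 in the chemokine-high tumors and of 6.02, 6.82 and 7.64 in the chemokine-low tumors. Above the median of all tumors lay 13 chemokine-high and 4 chemokine-low tumors. The means were 7.81 ± 0.84 and 6.84 ± 0.47 (SD, n = 17 each), a 1.96-fold difference (log2 difference 0.97, standard error 0.25, limma adjusted p = 0.0077). The 2 probes followed each other across the tumors (Pearson r 0.84, Spearman rho 0.84, n = 34). They carry names of 1 gene and were read in the same libraries, so they are not counted as 2 independent results. Which transcripts they bind was not checked by sequence.

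The PD-L1 difference was found in the second batch. There it was 1.50 for CD274 and 1.21 for the PD-L1 probe (limma adjusted p = 0.00069 and 0.0045). The first batch held 4 chemokine-high and 3 chemokine-low tumors, and there the differences were 0.23 and 0.09 (limma adjusted p = 0.885 and 0.947), and the difference between batches was not tested. The median difference over the 42 genes was itself -0.22 in the first batch and -0.01 in the second. With the batch as a term, the differences of the 2 probes over all tumors were 1.24 and 0.98. Without the 10 tumors near the dividing score they were 1.68 and 1.37, a setting chosen after seeing the data.

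**Figure D2:**
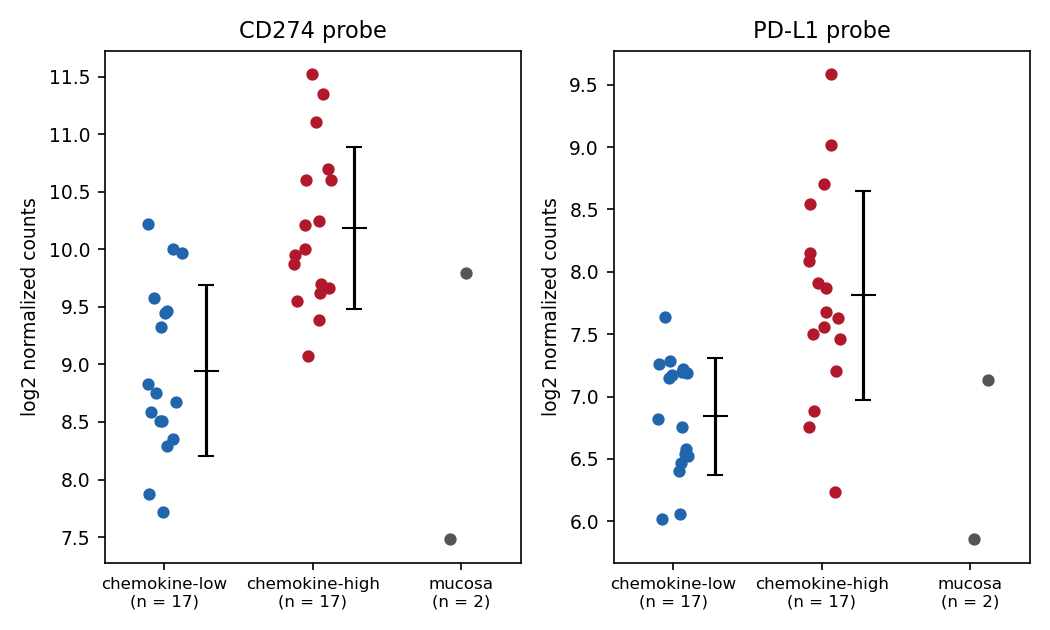
Log2 normalized counts of the CD274 probe (left) and the PD-L1 probe (right) in each chemokine-low tumor, chemokine-high tumor and mucosa sample, with the mean and SD of each tumor group as a black bar. The chemokine-high tumors had the higher mean on both probes, at 10.19 and 7.81, and the groups overlapped.

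CD3e, a chain of the T cell receptor complex and the panel's general T cell transcript, did not separate the groups. It had values of 8.55, 10.29 and 12.17 in the chemokine-high and of 8.08, 10.33 and 14.19 in the chemokine-low tumors, and 8 and 9 of these lay above the median of all tumors. The log2 difference was -0.23 (95% interval -1.15 to 0.69, limma adjusted p = 0.837). The tumors of patients 33 and 34, both chemokine-low, had the highest CD3e levels, 13.89 and 14.19, and were the most alike of any pair over the panel. Their mean absolute log2 difference was 0.19, against 0.50 for the next pair, and the labels do not say whether they shared a dog. Without both, the CD3e difference was 0.26.

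With log2 CD3e as a covariate, which compares tumors at an equal T cell transcript level, the same 2 probes were called out of 41 genes (4.88%), and 10 genes had an unadjusted p below 0.05. The CD274 difference was 1.28 (95% interval 0.81 to 1.76, limma adjusted p = 0.00013), and the PD-L1 probe difference was 1.00 (95% interval 0.53 to 1.47, limma adjusted p = 0.0025). Both lay close to their values without the covariate. With log2 IFNg as the covariate instead, a setting chosen after seeing the data, CD274 was still called (1.14, limma adjusted p = 0.010), and the PD-L1 probe was not (0.73, limma adjusted p = 0.079). The median difference over the 41 genes of that fit was itself -0.29, against -0.02 over the 42 genes without a covariate, so the lower values were not particular to PD-L1. IFNg encodes interferon gamma, an inducer of PD-L1, and itself differed by 0.48 (limma adjusted p = 0.221).

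None of the 7 genes of the inflammatory cytokine and stroma list passed the test, with 6 values higher and 1 lower in the chemokine-high tumors and a median difference of 0.36 against -0.02 over all genes. SELP, the P-selectin of activated endothelium and platelets that captures rolling leukocytes, had values of 6.88, 8.04 and 9.15 in the chemokine-high and of 5.39, 7.30 and 9.82 in the chemokine-low tumors. Its difference was 0.82 (standard error 0.30, limma adjusted p = 0.083). The chemokine-high values were the less spread, and the chemokine-low tumors held both the lowest and the highest.

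IL12, a cytokine that directs T cells toward interferon production, had values of 4.94, 6.29 and 7.64 in the chemokine-high tumors and of 4.98, 7.23 and 10.54 in the chemokine-low tumors. Its difference was -1.08 (standard error 0.39, limma adjusted p = 0.083). The tumors with the highest IL12 levels were thus chemokine-low. On the continuous score IL12 was called, at -0.40 per unit of score (limma adjusted p = 0.038).

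TNF, a cytokine that induces chemokines in many cells, had values of 7.01, 8.18 and 10.24 in the chemokine-high and of 6.37, 7.42 and 9.89 in the chemokine-low tumors, with 13 and 4 tumors above the median. Its difference was 0.61 (standard error 0.31, limma adjusted p = 0.251) and with CD3e as a covariate it was 0.70 (limma adjusted p = 0.065). Without the tumors of patients 33 and 34, a setting chosen after seeing the data, TNF was called (0.90, limma adjusted p = 0.019).

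IL 18, an inflammasome-dependent cytokine of epithelium and macrophages, had values of 9.97, 11.30 and 13.69 in the chemokine-high and of 8.59, 10.87 and 14.57 in the chemokine-low tumors. The difference was 0.61 (standard error 0.44, limma adjusted p = 0.624), and on the continuous score IL 18 was called, at 0.45 per unit (limma adjusted p = 0.027). IL6, an inflammatory cytokine, spanned 7.03 to 12.17 and 5.93 to 12.27 and differed by 0.36 (95% interval -0.68 to 1.41). CCL2, a chemokine of monocytes, differed by 0.22 (95% interval -0.46 to 0.91), and KDM6B, a histone demethylase of inflammatory macrophages, by 0.31 (95% interval -0.21 to 0.84). These 3 intervals leave room for differences in both directions.

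In the checkpoint list, 2 of 6 rows were higher, the 2 PD-L1 probes, and none was lower. The inhibitory receptor PD-1 had values of 5.12, 7.15 and 9.20 in the chemokine-high and of 5.42, 7.33 and 10.87 in the chemokine-low tumors, a difference of -0.50 (95% interval -1.43 to 0.43, limma adjusted p = 0.624). CTLA4, an inhibitory receptor of activated and regulatory T cells, differed by 0.10 (95% interval -0.60 to 0.80), and LAG3, an inhibitory receptor of chronically stimulated T cells, by -0.03 (95% interval -0.58 to 0.51). PDCD1LG2, which encodes PD-L2, the other ligand of PD-1, differed by 0.06 (95% interval -0.61 to 0.74, limma adjusted p = 0.973). Whether these differences differ from that of PD-L1 was not tested.

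None of the remaining lists held a called gene, with or without CD3e as a covariate. Over the 7 T cell identity and costimulatory receptor genes the median difference was -0.03, over the 5 cytolytic and NK cell genes 0.30, over the 4 costimulatory ligands and CD40 -0.28, over the 5 lineage transcription factors -0.32 and over the 2 suppressive cytokines -0.18. Of the markers of other cells, CLEC4C of plasmacytoid dendritic cells differed by -0.47 (limma adjusted p = 0.176), Pax5 of B cells by -0.31 (adjusted p = 0.750) and NCR1 of NK cells by -0.21 (adjusted p = 0.802, limma for each). NCR1 exceeded the background of the negative controls in 24 of 34 tumors and Pax5 in 27. Standard errors over the 42 genes ran from 0.20 to 0.56, so a difference of the size of CD8a's -0.32 (95% interval -1.46 to 0.81) was not detectable with these groups.

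**Figure D3:**
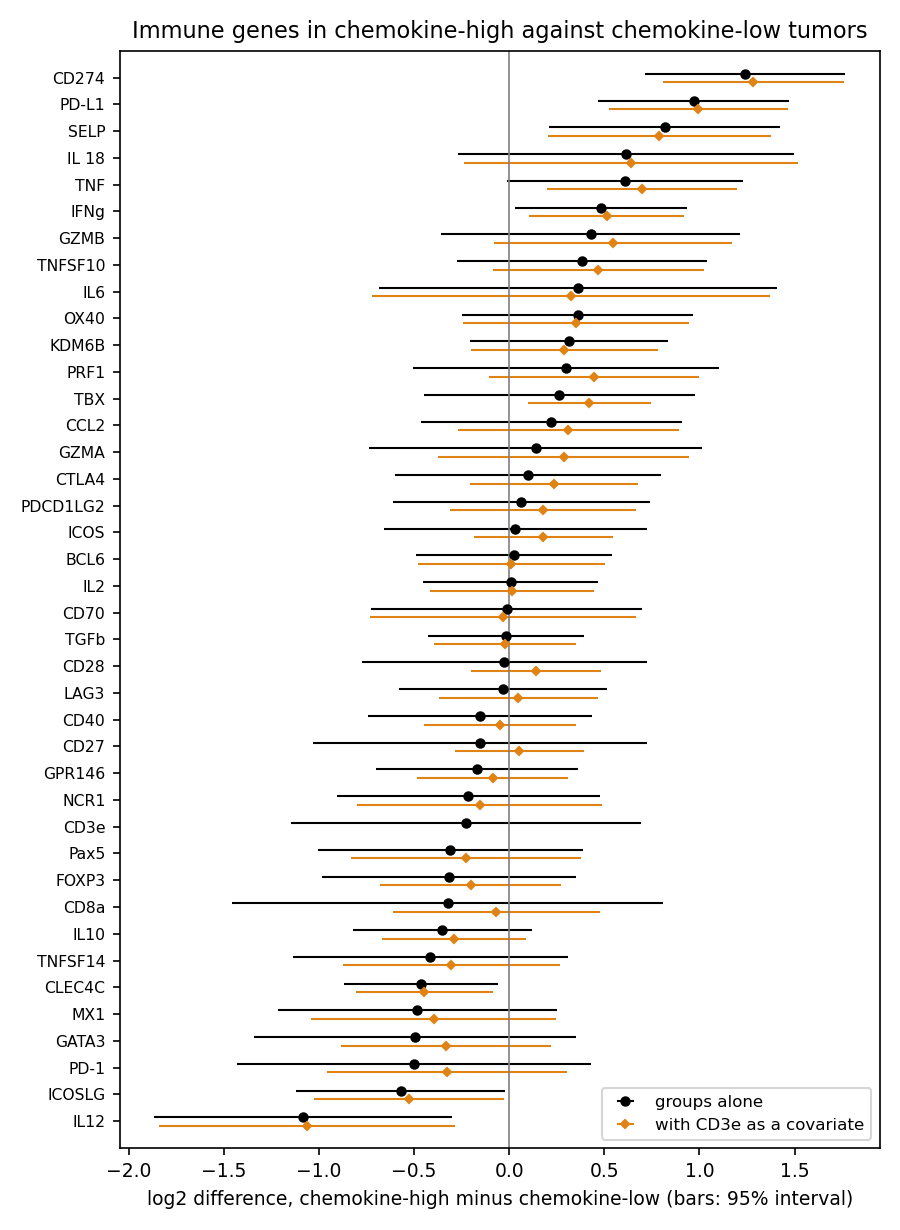
Log2 difference between chemokine-high and chemokine-low tumors (17 each) for 40 immune genes, from the groups alone (black circles) and with CD3e as a covariate (orange diamonds), with 95% intervals that are not adjusted for the number of genes. CD274 at 1.24 and PD-L1 at 0.97 head the list, and most other intervals span 0.

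Because tumors reached a high score through either chemokine, log2 CXCL2 and log2 IL8 were also entered as 2 continuous terms in 1 limma fit over the 34 tumors, a test chosen after seeing the data, as were the genes named for it. A slope is the change in a gene's log2 value per log2 unit of 1 chemokine at an equal level of the other. On CXCL2, 17 of 42 genes had a called slope (40.5%), all upward. On IL8, 12 were called (28.6%), 4 upward and 8 downward. The 2 slopes differed from each other in 19 genes (45.2%), in 17 with the larger slope on CXCL2. These directions depend on the scaling. After samples were set to equal medians over the 42 genes, which moved the median CXCL2 slope from 0.12 to -0.01, the CXCL2 slopes called were 6 upward and 8 downward, the IL8 slopes 11 upward and 7 downward, and the differences 8 and 13.

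The PD-L1 probes rose with both chemokines over all tumors. CD274 had a slope of 0.34 on CXCL2 (standard error 0.05, limma adjusted p = 2.7e-06) and of 0.19 on IL8 (standard error 0.05, limma adjusted p = 0.0034), and the 2 slopes did not pass the test for a difference (0.15, limma adjusted p = 0.083). The PD-L1 probe had slopes of 0.21 and 0.16 (limma adjusted p = 0.0063 and 0.036). After equal-median scaling the CD274 slopes were 0.30 and 0.25, both called, while that of the PD-L1 probe on CXCL2 was 0.14 and not called. With scaling without GUSB the PD-L1 probe's slope on IL8 was 0.13 and not called (limma adjusted p = 0.079). Over 18 other settings the CD274 slope was called in 17 on CXCL2 and in 16 on IL8. For the PD-L1 probe these counts were 15 and 12. All of these slopes stayed above 0, but no IL8 slope was called within either batch alone. CD274 was 9.95 to 11.35 in the 7 tumors high in both chemokines and 7.72 to 8.83 in the 7 low in both. How many of the other genes separated these tumors as far was not counted. The CD274 medians in the tumors high in CXCL2 only and in IL8 only were 9.83 and 9.48, between the others.

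In the T cell list 5 of 7 genes rose with CXCL2, 2 fell with IL8, and the slopes differed in 5, against 17, 8 and 19 of all 42 genes, and OX40 and IL2 were the 2 members with none of these calls. These counts moved with the scaling, since after equal-median scaling 0 of 7 rose and 1 fell with CXCL2, 2 rose and 4 fell with IL8, and 4 had the larger slope on CXCL2 and 2 on IL8. CD8a, the coreceptor of cytotoxic T cells, had a slope of 0.36 on CXCL2 and of -0.46 on IL8, a difference of 0.81 (standard error 0.16, limma adjusted p = 8.6e-05). CD3e had slopes of 0.33 and -0.27 (difference 0.59, limma adjusted p = 0.00074). By quadrant, CD8a had a median of 10.79 in the 10 tumors high in CXCL2 only, 8.62 in the 7 high in both, 8.81 in the 7 low in both and 7.96 in the 10 high in IL8 only. The tumors high in CXCL2 only thus had the highest median, and the score placed 5 of them in each group.

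In the cytolytic and NK list, 3 of 5 genes rose with CXCL2, 1 fell with IL8 and 3 differed in slope, where 40.5% of all 42 genes had a called slope on CXCL2 and 45.2% a called difference. IFNg and NCR1 had no called slope. After equal-median scaling 2 rose with CXCL2, 1 rose and 1 fell with IL8, and 2 differed. GZMA, a granzyme of cytotoxic granules, had slopes of 0.45 on CXCL2 and -0.22 on IL8 (difference 0.67, limma adjusted p = 1.4e-05). GZMB, another granzyme, rose with CXCL2 (0.41, limma adjusted p = 3.7e-05) and had a slope of -0.07 on IL8 (limma adjusted p = 0.459). TBX, the panel's name for a T-box factor, had slopes of 0.36 and -0.18, and CD40, a costimulatory receptor of antigen-presenting cells, of 0.24 and -0.21, with called differences of 0.54 and 0.45. Both belong to other lists, where 1 of 5 lineage transcription factors and 1 of 4 costimulatory ligands and CD40 rose with CXCL2. After equal-median scaling 1 rose and 2 fell with CXCL2 in each of these lists. Among the transcription factors 2 had the larger slope on CXCL2 and 1, BCL6, on IL8 (difference -0.21, limma adjusted p = 0.038). After equal-median scaling the slope differences of CD8a, GZMA, GZMB, TBX and CD40 were still called and had the same sign, while CD8a's slope on CXCL2 was 0.13 and CD40's slope on IL8 was -0.093 (limma adjusted p = 0.205 and 0.060). With scaling without ALAS1, the slopes on IL8 of TBX (-0.15, limma adjusted p = 0.099) and GZMA (-0.19, limma adjusted p = 0.086) were not called. Over 18 other settings the slope on IL8 was called in 10 for TBX, 12 for GZMA, 15 for CD40 and 16 for CD8a.

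In the inflammatory list, 2 of 7 genes rose with CXCL2, and 2 rose and 1 fell with IL8. Over all 42 genes these counts were 17, 4 and 8. Of the called slope differences, 1 had the larger slope on CXCL2 and 1 on IL8, against 17 and 2 of all 42 genes. After equal-median scaling 0 rose with CXCL2, 4 rose with IL8 and 3 had the larger slope on IL8. CCL2 had slopes of 0.21 and -0.15 (difference 0.36, limma adjusted p = 0.0078). TNF rose with CXCL2 (0.19, limma adjusted p = 0.049). SELP went the other way from CCL2. Its slope was 0.27 on IL8 (limma adjusted p = 0.0026) and -0.07 on CXCL2 (adjusted p = 0.399, limma), and the slopes differed by -0.34 (limma adjusted p = 0.0053). Its median was 8.35 in tumors high in IL8 only and 7.31 in tumors high in CXCL2 only. IL 18 had a slope of 0.26 on IL8 (limma adjusted p = 0.036), a call that was lost once a batch term was added (0.26, limma adjusted p = 0.076) and under scaling without GUSB (0.24, limma adjusted p = 0.054). IL12 had a slope of -0.30 on IL8 (limma adjusted p = 0.013), which was -0.11 and not called after equal-median scaling (limma adjusted p = 0.365). Neither gene had a called difference between its slopes.

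**Figure D4:**
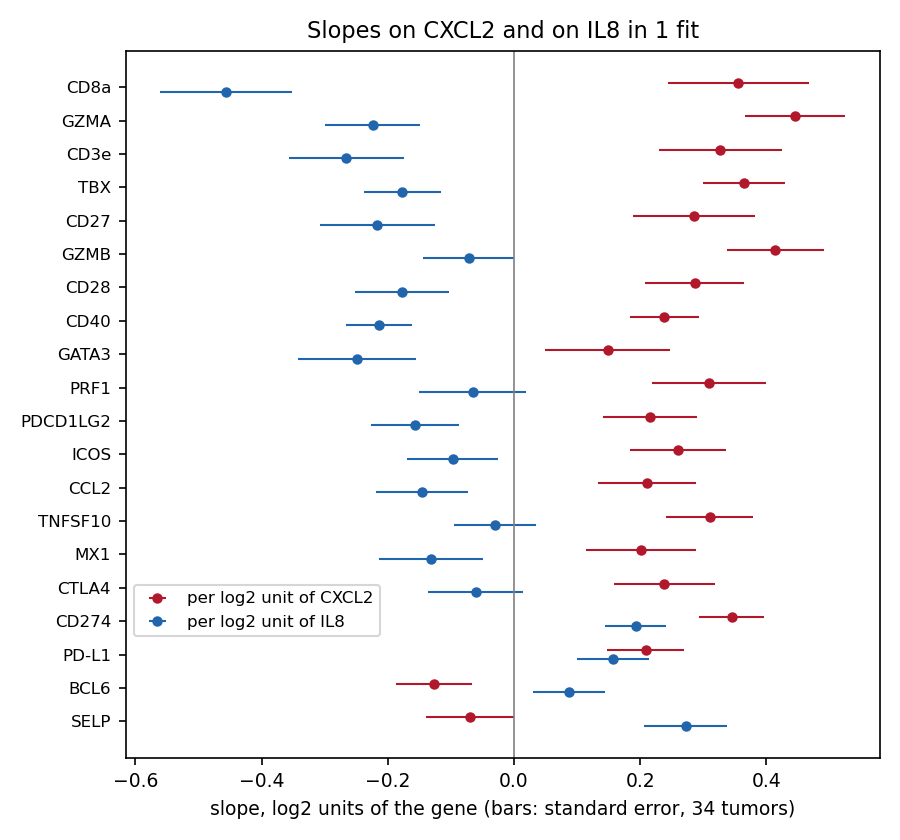
Slope of each gene's log2 value per log2 unit of CXCL2 (red) and of IL8 (blue) in 1 fit over 34 tumors, with standard errors, for genes whose slopes differed and for the PD-L1 probes. CD8a had slopes of 0.36 and -0.46, while both slopes of CD274, 0.34 and 0.19, were above 0.

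The tumors were also dichotomized by 1 chemokine at a time. By CXCL2 alone, 13 genes were called, all higher in the CXCL2-high tumors, where the median difference over the 42 genes was itself 0.44, with CD3e higher by 1.27 and CD8a by 1.54 (limma adjusted p = 0.017 for both). With CD3e as a covariate, this grouping called 8 genes, 4 higher and 4 lower, with a median difference of -0.09. By IL8 alone, 2 genes were called, and the median difference over the 42 genes was itself -0.33. CD8a was lower by a log2 difference of -1.87 (limma adjusted p = 0.012) and SELP higher by 1.01 (limma adjusted p = 0.022). With CD3e as a covariate, the IL8 grouping called 1 higher and 1 lower gene, with a median difference of 0.01. CD274 was higher by 1.17 by CXCL2 (limma adjusted p = 0.0011) and differed by 0.58 by IL8 (adjusted p = 0.180, limma). These groupings use the same 34 tumors and are not independent of the slopes.

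**Figure D5:**
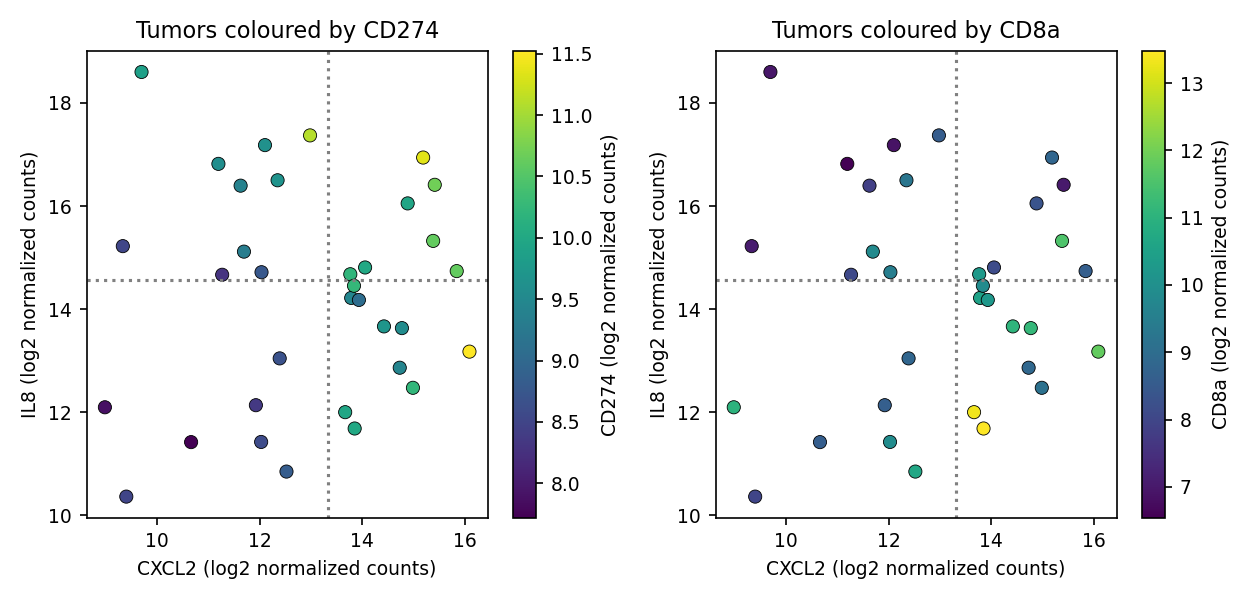
The 34 tumors by log2 normalized counts of CXCL2 (x axis) and IL8 (y axis), colored by the log2 level of CD274 (left) and of CD8a (right), with dotted lines at the median of each chemokine. CD274 was highest toward the upper right (median 10.60 in tumors high in both), whereas CD8a was highest toward the lower right (median 10.79 in tumors high in CXCL2 only).

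The count of slopes called on IL8 moved with single tumors. Leaving out 1 tumor at a time gave 5 to 17 called IL8 slopes, with 5 without patient 16, 6 without patient 2, 21 or 33, and 7 without patient 6 or 34. In the second batch 0 were called by limma, with 13 at an unadjusted p below 0.05, and in the first batch also 0, with 1 at an unadjusted p below 0.05. The slopes differed in 11 genes within the second batch and in 2 within the first.

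The groups overlapped in depth. Total counts over the 48 genes were 48534 to 665587 (median 258180) in the chemokine-high and 27092 to 336241 (median 188248) in the chemokine-low tumors, and the difference in log2 total was 0.51 (permutation test, two-sided, adjusted p = 0.267). Of the 4 housekeeping genes used for scaling, GUSB was lower in the chemokine-high tumors by a log2 difference of -0.40 (permutation test, two-sided, p = 0.0026, adjusted p = 0.018), and ALAS1 differed by 0.40 (permutation test, p = 0.044, adjusted p = 0.152), over 7 library measures. RPL30 and SDHA differed by 0.04 and -0.04. The values were already scaled to these 4 genes, so their differences offset each other. The tests therefore cannot tell which of the 4 genes changed. Scaled without GUSB, CD274 and PD-L1 were still called, at 1.10 and 0.84, with 2 lower genes, 1 of them IL12 (-1.22, limma adjusted p = 0.044). Scaled without ALAS1, the CD274 difference was 1.37, and SELP was called (0.95, limma adjusted p = 0.030).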

How the data were processed

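A NanoString nCounter panel of 44 immune genes, 4 housekeeping genes and 12 controls was read in 34 canine OSCC tumors and in 2 samples of mucosa. The deposited values are a normalized signal that the authors scaled to the housekeeping genes in nSolver. Control rows were left unscaled. Of 1728 gene values, 1727 equalled a whole count (tolerance 0.01) times 1 factor per sample, and depth was taken from these counts. The number of counts limits the precision of low genes, and p-values measure the spread between tumors.

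Values were log2-transformed with no pseudocount. The groups were compared by limma 3.58.1 (R 4.3.3; lmFit, eBayes) with Benjamini-Hochberg adjustment over 42 genes, or 41 with CD3e as a covariate, and called at an adjusted p below 0.05. Library measures were compared by permutation test (100000 resamples, Python 3.11.15, scipy 1.17.1). Batches were set by a positive control ratio above or below 2. Named genes were those called in either fit, CD3e, the inflammatory list, PD-1, CTLA4 and LAG3, and others were named after their values were seen. The groups, lists and tests were chosen with earlier results of these data known. Results of 2 panel genes are not reported here, although they stayed in tests and counts. CXCL2 belongs to a family of closely related chemokines, and the probe sequences were not used here. Gene names were matched to RefSeq (UU_Cfam_GSD_1.0).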

Additional observations from a re-analysis of the deposited data

How the results depend on the processing

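The comparison of the groups, with 2 called genes, was repeated in 25 settings. CD274 was called in 23 of them and the PD-L1 probe in 21, each with a positive difference in all 25, and leaving out 1 tumor at a time gave 2 to 3 called genes, always including both probes. CD274 was not called by IL8 alone or in the first batch, and the PD-L1 probe also not by CXCL2 alone (0.61, limma adjusted p = 0.097) or with IFNg as a covariate. The count moved to 4 on the continuous score, 13 by CXCL2 alone, 4 with scaling without GUSB and 0 in the first batch (7 tumors, limma, 3 at an unadjusted p below 0.05). With CD3e as a covariate, 2 called genes became 9 on the continuous score, 8 by CXCL2 alone (4 higher and 4 lower), 6 with the 11 highest against the 11 lowest tumors, 5 with scaling without ALAS1, 5 without GUSB, 5 in the second batch, 0 in the first (limma, 5 at an unadjusted p below 0.05), 4 with housekeeping counts as a term and 4 without patients 33 and 34, and 2 to 3 without 1 tumor. The called slopes, a setting chosen after seeing the data with all of its alternatives, were 17 on CXCL2 (0 in the first batch by limma, 1 at an unadjusted p below 0.05; 14 to 18 without 1 tumor), 12 on IL8 (7 with scaling without ALAS1, 0 in either batch, 6 without patient 33, 7 without patient 34, 6 without both, 5 to 17 without 1 tumor) and 19 for their difference (2 in the first and 11 in the second batch, 15 to 21 without 1 tumor). Reversed values were the CD3e difference by CXCL2 alone (1.27) and, in the first batch, the CD8a slope on CXCL2 (-0.039) and the TBX slope on IL8 (0.064), and the cause was not tested. A further 31 values, group differences and slopes together, changed sign and were called neither in their main fit nor in the other setting. Of these, 10 were of LAG3 and 5 of CTLA4. A count model on the recovered counts was not run. No paired analysis was possible because the labels do not identify which tumors shared a dog.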
